A study of Mus musculus with 12 samples.

Results

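The genes described here store iron, handle heme or carry iron across membranes, and were measured in mouse aortas 1 or 2 weeks after an infusion of porcine pancreatic elastase (PPE) or 1 week after saline. Ferritin light chain (Ftl1), the heme-degrading enzyme heme oxygenase 1 (Hmox1) and the phagosomal metal transporter Slc11a1 rose at PPE week 1 relative to saline, and all 3 fell at PPE week 2 relative to PPE week 1. They were 3 of the 8 iron and heme genes that could be tested, where 3.98% of all 12756 tested accessions rose in the first comparison and 2.82% fell in the last. They belong to a group of 9 iron and heme genes, out of 24480 genes named in the count table. The others are ferritin heavy chain (Fth1), the iron exporter ferroportin (Slc40a1), the ferroxidase ceruloplasmin (Cp), the divalent metal transporter Slc11a2, the transferrin receptor (Tfrc) and transferrin (Trf). The group was put together as a list of ferritin, heme oxygenase and iron transport genes, with earlier results of these data known. The counts of its genes that rose or fell are therefore a description and no independent test. Which RefSeq accession stands for a gene was chosen by measured values, as the one with the highest mean over all 12 libraries of its counts per 1000000 (CPM). This selection mattered for 3 genes with several accessions. Slc11a2 NM_001146161 averaged 9.851 CPM and NM_008732 7.379 CPM. Cp NM_007752 averaged 21.45 CPM, against 10.63 CPM for NM_001276248 and 7.214 CPM for NM_001276250. Fth1 NR_073181 averaged 0.4615 CPM and NM_010239 was at 0. Of the 9 genes, 8 passed the filter on low counts, and Fth1 did not.

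The RNA came from aortas of male C57BL/6J mice, 10 weeks old, with 4 animals in each of 3 groups. The elastase, which digests elastic fibres and makes the vessel dilate, was infused into the infrarenal aorta, and the vessel was taken after 7 days in the group called PPE week 1 and after 14 days in PPE week 2. The saline group was infused with saline in place of the enzyme and harvested at day 7. No saline aorta of day 14 was used here, so that in the comparison of PPE week 2 with saline the elastase and the time since surgery cannot be told apart.

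Cells take up iron bound to transferrin through the transferrin receptor, move it out of endosomes through Slc11a2, store it inside shells of ferritin heavy and light chains, and release it through ferroportin. Heme from dying red cells is opened by heme oxygenase 1, which frees its iron, and macrophages do much of this recycling. When iron is scarce, iron regulatory proteins bind a stem-loop, the iron-responsive element. In a 5′ untranslated region the binding blocks translation, and in a 3′ untranslated region it protects the mRNA from decay.

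The elements are shown because they mark which of these genes are known to be controlled outside transcription, a level that counts of mRNA reach only in part. They were searched in GENCODE M21 transcripts (GRCm38), on the transcript's own strand, as a stem with a bulged C and a loop of 6 bases. The loop was CAGTG followed by A, C or T. The upper stem had 5 pairs, and the lower stem had at least 4 pairs out of 5, with G-T counted as a pair. Capitals mark the loop. A single 5′ element was found in Fth1 (chr19:9982733-9982759, plus strand), in Ftl1 (chr7:45459780-45459806, minus strand) and in Slc40a1 (chr1:45925466-45925492, minus strand).
Fth1: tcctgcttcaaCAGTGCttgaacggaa
Ftl1: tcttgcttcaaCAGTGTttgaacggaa
Slc40a1: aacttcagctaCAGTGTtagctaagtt
In the 3′ untranslated region, Tfrc held 4 matches on the plus strand, and Slc11a2 held 1 on the minus strand (chr15:100395153-100395180) when 1 unpaired base was allowed in the upper stem. The Tfrc elements are given in the order chr16:32631220-32631246, chr16:32631599-32631625, chr16:32631664-32631690 and chr16:32631711-32631737.
Tfrc, element 1: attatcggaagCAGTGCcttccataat
Tfrc, element 2: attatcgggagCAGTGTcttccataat
Tfrc, element 3: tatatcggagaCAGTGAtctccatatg
Tfrc, element 4: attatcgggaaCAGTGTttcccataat
Slc11a2: gccatcagagcCAGTGTgtttctatggt
Such elements are rare. The strict form was found in the 5′ untranslated region of 6 of 22500 coding genes (0.0267%), the others being Alas2, Ftl1-ps1 and Ppp1r1b, and in the 3′ untranslated region of 7 genes (0.0311%). With the unpaired base it was found in the 3′ untranslated region of 14 genes (0.0622%). No match under this rule was found in Hmox1, Slc11a1, Trf or Cp.

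Total counts were 8343313 to 12269131 per library. The share of NR_046233, the ribosomal RNA precursor, was 30.4% ± 6.34 at PPE week 1, 20.4% ± 1.13 at PPE week 2 and 41.3% ± 6.48 in saline (SD, n = 4 each). Levels below are CPM after scaling by the trimmed mean of M-values (TMM). Macrophage markers had a summed level of 4405 to 5620 CPM at PPE week 1, 1482 to 3682 CPM at PPE week 2 and 2309 to 2788 CPM in saline, and none of the 12 was at 0. Smooth muscle markers summed to 1714 to 3154 CPM at PPE week 1, 4879 to 10989 CPM at PPE week 2 and 5864 to 7772 CPM in saline. In whole tissue, fewer cells of a type and less RNA per cell cannot be told apart.

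Iron storage could be followed through the light chain only. Ftl1 (NM_010240, chr7:45457944-45459886 in GRCm38) encodes the ferritin chain that favours formation of the iron core. At PPE week 1 its level was 722.9, 772.9, 570.6 and 602.1 CPM, and at PPE week 2 it was 451.1, 429.7, 363.7 and 529.0 CPM, against 339.1, 378.2, 322.2 and 302.1 CPM in saline. Every PPE week 1 library lay above every library of the other groups, while 1 PPE week 2 library, at 363.7 CPM, lay within the range of saline. Ftl1 rose at PPE week 1 (log2 fold change 0.99 ± 0.13 SE, edgeR quasi-likelihood test, adjusted p = 0.0011), which is a 1.989-fold higher level. It fell at PPE week 2 relative to PPE week 1 (-0.59 ± 0.13, adjusted p = 0.0147), and its PPE week 2 level did not pass the test against saline (0.40 ± 0.13, adjusted p = 0.121). The fall between the PPE weeks missed the threshold without PPE week 1 replicate 1 (adjusted p = 0.0516) or replicate 2 (0.0669), when libraries were scaled by their size alone (-0.36, adjusted p = 0.198), in a fit of those PPE groups alone (-0.58, adjusted p = 0.0529), and with the NR_046233 share as a covariate (-0.40, adjusted p = 0.318). Copies of Ftl1 with near-identical sequence exist in the mouse genome (Ftl1-ps1 carries the element too), so its count is uncertain where reads could match several copies.

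Fth1 (chr19:9980600-9985111), the chain that oxidises iron for storage, was almost uncounted. NM_010239 had a count of 0 in all 12 libraries, and NR_073181 had between 0 and 15 counts per library, 53 in all. Only 6 of the 929 bases of NM_010239 lie outside the exons of the gene's other accession. Over the whole table, 96.5% of 654 accessions without bases of their own were at 0, against 11.1% of 2542 accessions with at least 100 such bases, among genes with at least 100 counts. The level of Fth1 and its ratio to Ftl1 are therefore not analysed here, and the 0 is no sign that the gene was silent.

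Hmox1 (NM_010442, chr8:75093618-75100593), which splits heme into iron, carbon monoxide and biliverdin, had the widest swing of the 8 tested genes. Its level was 138.1, 104.3, 80.73 and 74.44 CPM at PPE week 1 and 16.6, 27.05, 24.34 and 32.03 CPM at PPE week 2, against 46.75, 65.86, 35.8 and 26.53 CPM in saline. All PPE week 1 libraries stood above the rest, whereas PPE week 2 and saline shared part of their range, with PPE week 2 toward its low end. Hmox1 rose 2.273-fold at PPE week 1 (log2 fold change 1.18 ± 0.28 SE, adjusted p = 0.0161) and was 3.969-fold lower at PPE week 2 than at PPE week 1 (-1.99 ± 0.28, adjusted p = 0.00109). Its PPE week 2 level was below that of saline by a difference that did not pass the test (-0.80 ± 0.28, adjusted p = 0.139), and the sign turned with the NR_046233 covariate used below (0.10, adjusted p = 0.994). The fall between the PPE weeks passed without each of the 12 libraries in turn (adjusted p 0.000873 to 0.00551). The rise at PPE week 1 missed the threshold without saline replicate 3 (0.0562) or 4 (0.0527) and without PPE week 1 replicate 1 (0.0624) or 2 (0.0509), and with the NR_046233 share as a covariate (1.66, adjusted p = 0.0529).

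**Figure D1:**
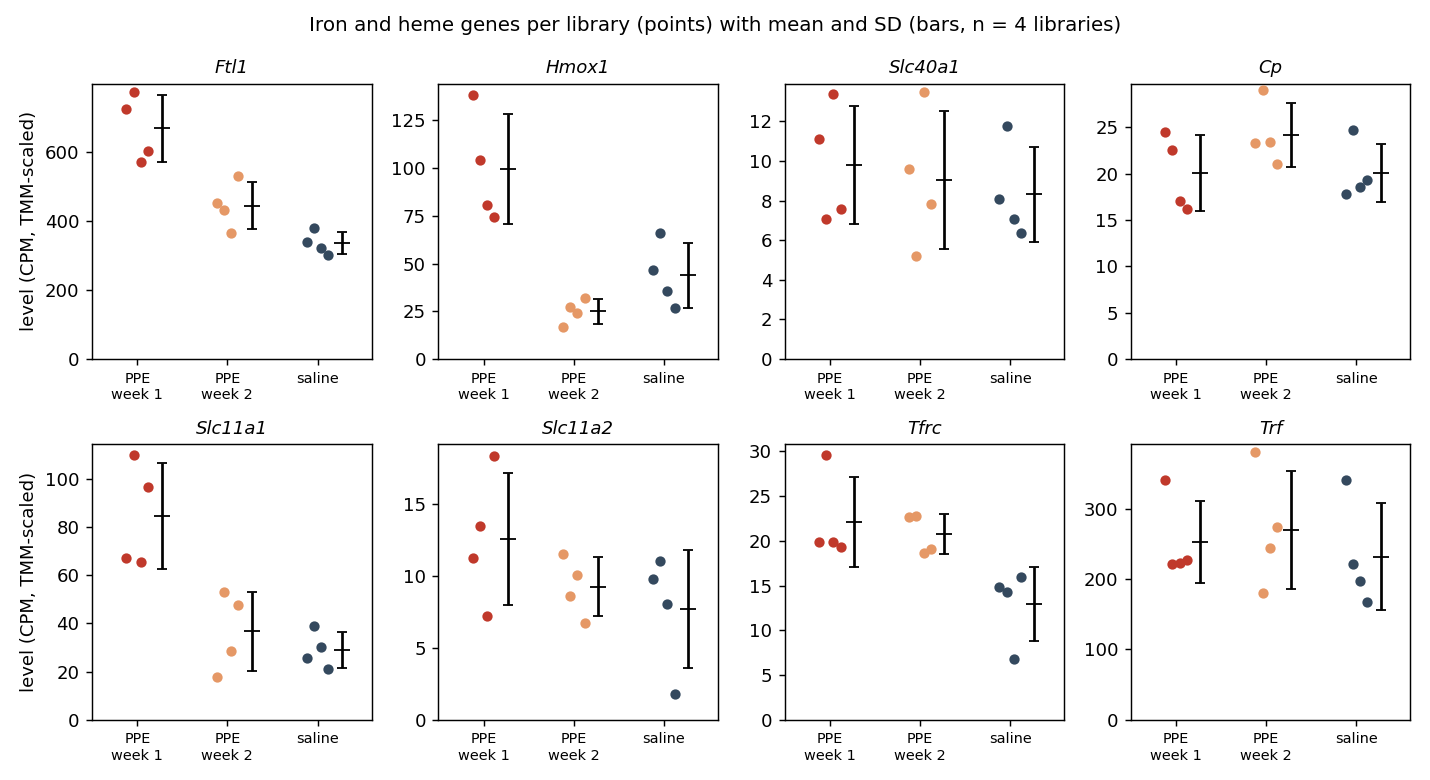
Level in TMM-scaled CPM (vertical axes, linear, from 0) of the 8 genes that passed the filter, by group. Points are libraries, and the bars are the mean and SD of 4 libraries. The PPE week 1 libraries of Ftl1, Hmox1 and Slc11a1 stand above all others, both PPE groups of Tfrc stand above saline, and the groups of Trf, Slc40a1 and Cp overlap.

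The 2 transporters of the SLC11 family, which move divalent metals across the membranes of endosomes and phagosomes, were measured at different levels. Slc11a1 (NM_013612, chr1:74375014-74386057), also called NRAMP1, sits in phagosomes of macrophages and neutrophils. C57BL/6 mice are known to carry a variant of it that impairs the protein, so its mRNA here does not stand for transport. Slc11a1 had 67.01, 109.8, 65.62 and 96.59 CPM at PPE week 1 and 17.81, 53.05, 28.72 and 47.57 CPM at PPE week 2, against 25.68, 39.04, 30.05 and 21.09 CPM in saline. PPE week 1 did not overlap with either of the others, and PPE week 2 spanned the whole range of saline. Slc11a1 rose 2.928-fold at PPE week 1 (log2 fold change 1.55 ± 0.31 SE, adjusted p = 0.00752), also without each library in turn (adjusted p 0.00124 to 0.0316), but not with the NR_046233 share as a covariate (1.95, adjusted p = 0.0531). It fell at PPE week 2 relative to PPE week 1 (-1.20 ± 0.30, adjusted p = 0.0281) and differed from saline at PPE week 2 by 0.35 ± 0.30 (adjusted p = 0.636). That fall missed the threshold without PPE week 1 replicate 2 (0.0979) or 4 (0.0695), or without PPE week 2 replicate 3 (0.0897). The fall also missed it with scaling by library size alone (-0.97, adjusted p = 0.0606), separately in a fit of the PPE groups alone (-1.19, adjusted p = 0.0643), and with the NR_046233 covariate (-0.84, adjusted p = 0.381).

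Slc11a2 (chr15:100387898-100424209), also called DMT1, carries iron from endosomes into the cytosol. Its accession NM_001146161 holds all 28 bases of the iron-responsive element in its own part, and NM_008732 holds none of them. The accession with the element had 11.29, 13.49, 7.258 and 18.36 CPM at PPE week 1 and 11.57, 8.633, 10.07 and 6.765 CPM at PPE week 2, against 9.838, 11.03, 8.101 and 1.812 CPM in saline. The groups overlapped, and no comparison of it passed the test (log2 fold change 0.71 ± 0.46 SE at PPE week 1, adjusted p = 0.419; 0.26 ± 0.46 at PPE week 2, adjusted p = 0.839; -0.44 ± 0.45 at PPE week 2 against PPE week 1, adjusted p = 0.656). The accession without it had 6.609, 7.741, 4.265 and 6.685 CPM at PPE week 1 and 8.021, 9.688, 9.983 and 10.58 CPM at PPE week 2, against 7.313, 6.854, 7.448 and 3.365 CPM in saline. All PPE week 2 libraries lay above those of saline here, as they did for 4.55% of all features. The PPE week 2 level did not pass the test against saline (0.61 ± 0.38, adjusted p = 0.463) or against PPE week 1 (0.60 ± 0.38, adjusted p = 0.419).

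The ratio of both Slc11a2 accessions, a measure added after their values were seen, needs no scaling between libraries. The count with the element divided by the count without it was 1.708, 1.743, 1.702 and 2.746 in the PPE week 1 libraries and 1.442, 0.8911, 1.009 and 0.6395 in those of PPE week 2, against 1.345, 1.609, 1.088 and 0.5385 in saline. PPE week 1 lay above both other groups without overlap. The mean log2 ratio was 0.95 ± 0.34 at PPE week 1 and 0.09 ± 0.69 in saline (SD, n = 4 each), a difference of 0.86 (two-sided exact permutation p = 0.0286, the smallest this design allows, 0.0857 after adjustment over 6 ratio tests). At PPE week 2 it was -0.07 ± 0.48, lower than at PPE week 1 by a difference of -1.02 (exact p = 0.0286, adjusted 0.0857), and -0.15 from saline (exact p = 0.714, adjusted 0.771). No ratio test passed after adjustment. The ratio rests on 14 to 184 counts per library and accession, and Gm5475, which overlaps the gene, had 17 counts in all 12 libraries. The kit does not record strand, so its reads cannot be told apart from those of Slc11a2. The ratio of Slc11a1 to Slc11a2 NM_001146161 overlapped between groups, with a mean log2 ratio of 2.79 ± 0.37 at PPE week 1, 1.89 ± 1.02 at PPE week 2 and 2.16 ± 0.95 in saline (n = 4 each). The exact permutation p of the difference from saline was 0.229 for week 1 (adjusted 0.343) and 0.771 for week 2 (adjusted 0.771), and between the weeks it was 0.2 (adjusted 0.343).

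**Figure D2:**
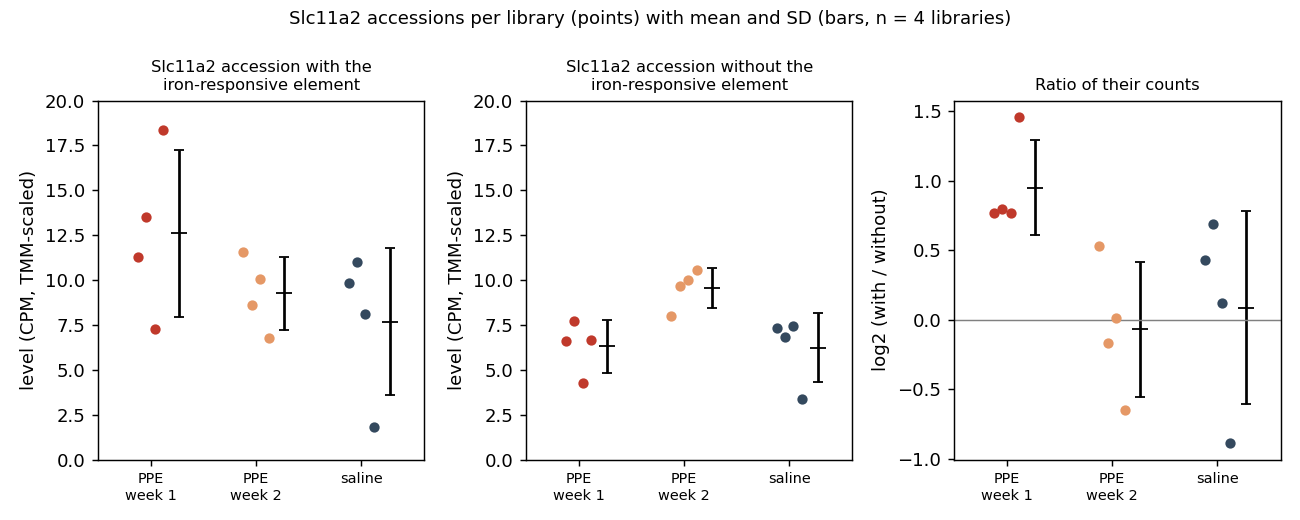
Slc11a2 by accession: level in TMM-scaled CPM of the accession with the iron-responsive element (left) and without it (middle), and the log2 ratio of their counts (right), by group. Points are libraries, and the bars are the mean and SD of 4 libraries. The PPE week 1 ratios lie above those of PPE week 2 and saline, with replicate 4 the highest at 1.46.

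Of the uptake genes, Tfrc (NM_011638, chr16:32608896-32632794), the receptor whose mRNA holds the 4 elements above, had 19.83, 29.64, 19.83 and 19.26 CPM at PPE week 1 and 22.66, 22.73, 18.65 and 19.07 CPM at PPE week 2, against 14.8, 14.3, 6.795 and 15.92 CPM in saline. Every PPE library lay above every saline library. The difference did not pass the test over all features at PPE week 1 (log2 fold change 0.77 ± 0.29 SE, adjusted p = 0.116) or PPE week 2 (0.68 ± 0.29, adjusted p = 0.233). It did with scaling by library size alone (1.03, adjusted p = 0.0468 at PPE week 1; 1.16, adjusted p = 0.0227 at PPE week 2), a scaling under which the median over all features was 0.28 and 0.54. The PPE weeks differed by -0.09 ± 0.28 (adjusted p = 0.907).

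Trf (NM_133977, chr9:103208876-103230286), the carrier protein of iron in plasma, made mainly by the liver, came second to Ftl1 in level among the 8 genes that could be counted. It had 340.5, 221.7, 223.2 and 227.0 CPM at PPE week 1 and 380.4, 180.7, 243.8 and 274.6 CPM at PPE week 2, against 341.1, 221.1, 197.6 and 167.6 CPM in saline. The groups overlapped, with replicate 1 the highest of each. No comparison passed (0.13 ± 0.25 at PPE week 1, adjusted p = 0.846; 0.22 ± 0.25 at PPE week 2, adjusted p = 0.739; 0.09 ± 0.25 between the PPE weeks, adjusted p = 0.892). Hepatocyte markers summed to at most 2.765 CPM at PPE week 1, 2.159 CPM at PPE week 2 and 5.565 CPM in saline.

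The export genes showed no called difference. Slc40a1 (NM_016917, chr1:45908070-45926532), the only known cellular iron exporter of mammals, had 11.11, 7.077, 13.39 and 7.583 CPM at PPE week 1 and 9.607, 5.18, 13.49 and 7.844 CPM at PPE week 2, against 8.097, 11.77, 7.056 and 6.341 CPM in saline. The groups overlapped throughout. Its log2 fold change was 0.24 ± 0.39 at PPE week 1 (adjusted p = 0.807), 0.12 ± 0.39 at PPE week 2 (adjusted p = 0.924) and -0.12 ± 0.39 between the PPE weeks (adjusted p = 0.911).

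Cp (chr3:19956933-20009750), whose protein oxidises the exported iron so that transferrin can bind it, was counted as 3 accessions. NM_007752 had 24.51, 22.56, 17.06 and 16.16 CPM at PPE week 1 and 23.32, 29.06, 23.38 and 21.01 CPM at PPE week 2, against 17.76, 24.73, 18.55 and 19.28 CPM in saline, with all groups overlapping. Its log2 fold change was 0.00 ± 0.24 at PPE week 1 (adjusted p = 1), 0.27 ± 0.24 at PPE week 2 (adjusted p = 0.64) and 0.27 ± 0.24 between the PPE weeks (adjusted p = 0.591). NM_001276250 had 5.048, 2.986, 4.34 and 2.495 CPM at PPE week 1 and 10.45, 11.03, 5.517 and 15.83 CPM at PPE week 2, against 8.271, 6.854, 3.528 and 10.22 CPM in saline. Its difference between the PPE weeks did not pass the test (1.52 ± 0.46, adjusted p = 0.0553). NM_001276248 differed by -0.15 (adjusted p = 0.879), -0.32 (adjusted p = 0.733) and -0.17 (adjusted p = 0.858) at PPE week 1, at PPE week 2 and between the PPE weeks. Hps3 overlaps Cp and had 329 counts over the 12 libraries, and without strand the reads of the overlap cannot be assigned.

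Compared per length of transcript, Ftl1 was the highest, with 689.2 ± 99.51 CPM per kilobase at PPE week 1, 458.1 ± 70.41 at PPE week 2 and 346.5 ± 33.35 in saline (SD, n = 4 each). Trf followed with 98.45 ± 22.69, 105.0 ± 32.45 and 90.18 ± 29.58 CPM per kilobase in the same groups. Hmox1 had 63.34 ± 18.36 CPM per kilobase at PPE week 1, 15.94 ± 4.106 at PPE week 2 and 27.87 ± 10.77 in saline. Slc11a1 had 36.61 ± 9.493 CPM per kilobase at PPE week 1, 15.89 ± 7.079 at PPE week 2 and 12.51 ± 3.303 in saline, so that at PPE week 2 Hmox1 and Slc11a1 did not differ beyond their spread. Tfrc had 4.527 ± 1.024, 4.25 ± 0.4544 and 2.649 ± 0.851 CPM per kilobase, and Slc40a1 had 2.905 ± 0.8893, 2.679 ± 1.034 and 2.468 ± 0.7161, again at PPE week 1, at PPE week 2 and in saline. In saline these low levels lay within each other's spread. Cp and Slc11a2 are left out of this order, since reads shared between their accessions appear not to have been counted.

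Across the 8 tested genes, 3 rose and 0 fell at PPE week 1 against saline, where 3.98% of all 12756 tested features rose and 3.91% fell. The median log2 fold change was 0.74 over the 8 genes and 0.00 over all features. The groups did not overlap for 4 of the 8, all higher at PPE week 1, against 12.1% of all features. At PPE week 2 against saline, 0 of 8 passed with edgeR, with DESeq2 or with limma-voom, where 1.3% of all features rose and 1.35% fell. At an unadjusted p under 0.05 the count was 2 higher and 1 lower, and the median was 0.27, against 0.05 over all features. With each gene taken as its most abundant accession, only Tfrc did not overlap there, against 4.55% of all features higher without overlap. The Slc11a2 accession without the element, which is not among these 8, did not overlap there either. At PPE week 2 against PPE week 1, 0 rose and 3 fell, where 3.77% of all features rose and 2.82% fell, and those 3 did not overlap, against 8.68% of features lower without overlap. The median was -0.28 over the 8 genes and 0.02 over all features. The first and the last of these comparisons share the PPE week 1 libraries, and the first and the second share the saline libraries.

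**Figure D3:**
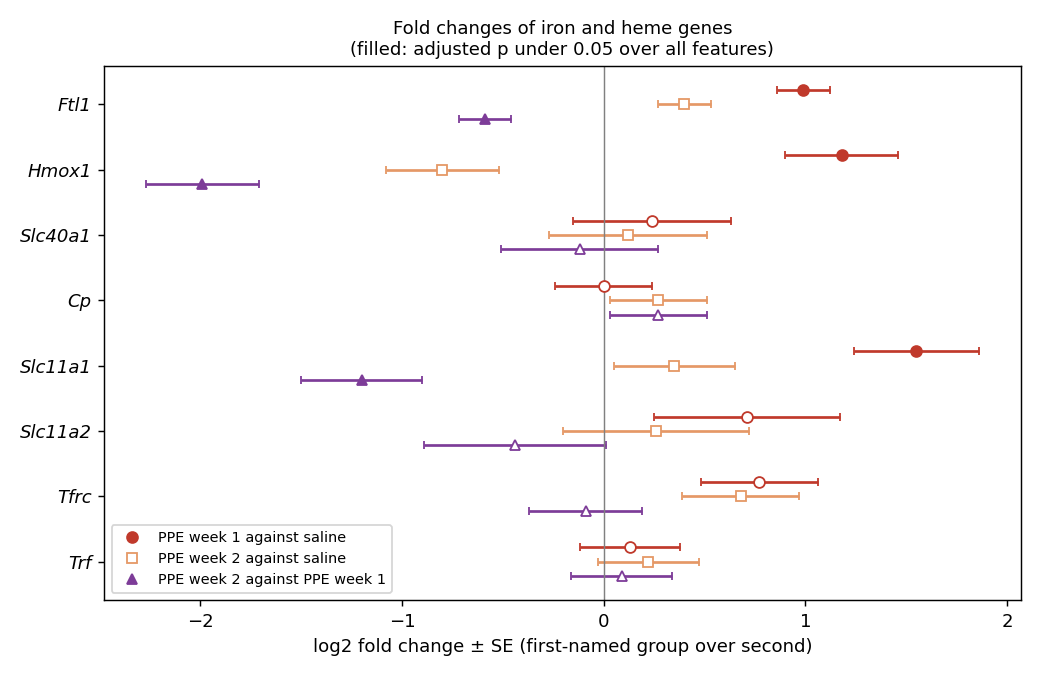
Log2 fold change (horizontal axis) with its SE from the edgeR fit for the 8 tested genes. Circles set PPE week 1 and squares PPE week 2 against saline, and triangles set the later week against the earlier one. Filled symbols passed an adjusted p under 0.05 over all features: Ftl1, Hmox1 and Slc11a1 lie right of 0 at PPE week 1 and left of 0 between the PPE weeks.

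The authors' deposited table for week 1 gave Ftl1 a log2 fold change of 0.96 (adjusted p = 4.87e-12), Slc11a1 1.47 (adjusted p = 2.03e-09) and Hmox1 1.11 (adjusted p = 0.000139), and Tfrc 0.70 (adjusted p = 0.0798). The authors' deposited table for week 2 gave Ftl1 0.39 (adjusted p = 0.188), Hmox1 -0.68 (adjusted p = 0.163), Slc11a1 0.28 (adjusted p = 0.702) and Tfrc 0.57 (adjusted p = 0.299).

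The summed levels of macrophage and neutrophil markers were also highest at PPE week 1. Beside the counts of markers called below, 3.98% of all features rose and 3.91% fell at PPE week 1 against saline. At PPE week 2 against saline 1.3% rose and 1.35% fell, and between the PPE weeks 3.77% rose and 2.82% fell. Of 12 macrophage markers, 3 rose at PPE week 1 (Cd68, C1qc and Cd14, with a median of 1.26 over the 12), 0 changed at PPE week 2 against saline (median 0.18, with 1 lower at an unadjusted p under 0.05), and 2 fell between the PPE weeks (Cd68 and Lyz2, median -0.80). The member Mertk, a receptor for dying cells, went the other way without passing, with 82.72 ± 5.765 CPM at PPE week 1, 98.83 ± 28.34 CPM at PPE week 2 and 119.1 ± 30.74 CPM in saline (-0.53 ± 0.20 at PPE week 1, adjusted p = 0.123). The count of macrophage markers called depends on the tool and the samples. At PPE week 1 it was 9 with DESeq2, 7 with limma-voom, 11 when only those groups were fitted, 1 if no filter on low counts was used and 1 with the NR_046233 share as a covariate. It was 1 without replicate 1, 2 or 4 of saline or replicate 2 or 4 of PPE week 1, and 5 to 8 without any 1 library of PPE week 2. Between the PPE weeks it was 4 with DESeq2 and 8 with limma-voom, 0 with the covariate, 1 without any 1 library of the earlier week or replicate 1 or 3 of the later, and 5 without replicate 4 of the later. Cd68, a lysosomal protein of macrophages, averaged 119.7 ± 16.62 CPM at PPE week 1, 51.05 ± 18.06 CPM at PPE week 2 and 42.85 ± 4.898 CPM in saline (SD, n = 4 each). Neutrophil markers summed to 33.78 to 130.5 CPM at PPE week 1, 2.977 to 15.26 CPM at PPE week 2 and 3.106 to 11.93 CPM in saline, with S100a9 at 0, and 0 of the 3 tested passed in any comparison with edgeR. Cxcr2, their chemokine receptor and the most abundant of the list, averaged 37.55 ± 22.06 CPM at PPE week 1, 4.47 ± 3.801 CPM at PPE week 2 and 2.766 ± 3.219 CPM in saline (3.70 ± 1.09 at PPE week 1, adjusted p = 0.0646). At PPE week 1 against saline, 2 of those 3 had an unadjusted p under 0.05 and 2 passed with DESeq2. Of 8 smooth muscle markers, 6 fell at PPE week 1 and 6 rose at PPE week 2 relative to PPE week 1, and these counts were 1 and 0 with the NR_046233 share as a covariate. Of these markers, Acta2 averaged 1497 ± 403.3 CPM at PPE week 1, 4418 ± 1749 CPM at PPE week 2 and 3569 ± 511.5 CPM in saline. At PPE week 1 Tagln fell by 1.51 on the log2 scale (adjusted p = 0.00406), Cnn1 by 1.85 (adjusted p = 0.00403) and Itga8 by 2.68 (adjusted p = 0.00144).

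Of 8 fibroblast markers, 4 fell at PPE week 1 and 3 at PPE week 2, each against saline, and 2 rose at PPE week 2 relative to PPE week 1. Col1a1 and Col1a2, by far the most abundant of the list, were higher at PPE week 1 than in saline without passing. Col1a1 averaged 29994 ± 3388 CPM at PPE week 1 and 22800 ± 3180 CPM in saline (0.40 ± 0.14, adjusted p = 0.0951). Col1a2 differed by 0.20 ± 0.14 at PPE week 1 (adjusted p = 0.465). The list summed to 42921 to 55438 CPM at PPE week 1, 33579 to 51475 CPM at PPE week 2 and 34082 to 44791 CPM in saline. The matrix gene Dcn averaged 110.5 ± 17.4 CPM at PPE week 1, 91.5 ± 18.82 CPM at PPE week 2 and 170.6 ± 27.47 CPM in saline (adjusted p = 0.0323 at PPE week 1 and 0.0108 at PPE week 2). Dpt averaged 228.9 ± 55.74 CPM at PPE week 1, 278.8 ± 79.91 CPM at PPE week 2 and 508.3 ± 73.34 CPM in saline (adjusted p = 0.00392 and 0.0347). Pi16 fell at PPE week 1 (-0.71 ± 0.18, adjusted p = 0.0247) and rose between the PPE weeks (0.91 ± 0.18, adjusted p = 0.00665). Gsn rose between the PPE weeks (2.12 ± 0.55, adjusted p = 0.0296) at a low level. It averaged 3.169 ± 0.2826 CPM at PPE week 1, 13.79 ± 7.878 CPM at PPE week 2 and 4.509 ± 2.618 CPM in saline. Whether reads shared between accessions were left out of the count of Gsn was not checked. Without 1 library the fibroblast counts were 1 to 4 at PPE week 1, 1 to 3 at PPE week 2 and 1 to 2 between the PPE weeks, and with the covariate all were 0. The count of 4 was 1 without replicate 1 or 4 of PPE week 1 and 2 without replicate 2 of it or replicate 2, 3 or 4 of saline, and the count of 3 was 1 without replicate 3 or 4 of saline or replicate 4 of PPE week 2. Without any 1 PPE week 1 library, or replicate 1 or 3 of PPE week 2, 1 marker rose between the PPE weeks.

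In the endothelial list, 1 of 6 tested genes rose between the PPE weeks. This was Vwf, with 402.2 ± 106.4 CPM at PPE week 2 and 219.3 ± 56.17 CPM at PPE week 1 (0.87 ± 0.21, adjusted p = 0.0204), and 0 passed there without replicate 1 or 2 of PPE week 1, or with the covariate. In the adipocyte and Schwann cell lists 0 of 6 and 0 of 2 tested genes passed with edgeR. At an unadjusted p under 0.05, 1 of each was higher between the PPE weeks, and 1 Schwann cell gene was higher at PPE week 2 against saline. DESeq2 called 1 adipocyte gene between the PPE weeks and 1 Schwann cell gene at PPE week 2. Fabp4 averaged 328.8 ± 87.18 CPM at PPE week 1, 875.4 ± 787.7 CPM at PPE week 2 and 828.2 ± 394.9 CPM in saline. Mbp averaged 22.43 ± 2.641 CPM at PPE week 1, 21.99 ± 7.278 CPM at PPE week 2 and 16.93 ± 8.711 CPM in saline. The part of these cell types in the changes of Ftl1, Hmox1 and Slc11a1 was not tested.

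Red cell markers gave little to read. Of 10 listed, 9 were in the table and 3 could be tested, and 0 passed in any comparison with edgeR, while 1 was higher at an unadjusted p under 0.05 against saline at each PPE week and 1 passed with DESeq2 at PPE week 2. Their summed level was 6.087 to 13.16 CPM at PPE week 1, 3.742 to 25.28 CPM at PPE week 2 and 2.682 to 13.2 CPM in saline. Most abundant was the anion exchanger Slc4a1, with 5.628 ± 2.495 CPM at PPE week 1, 8.261 ± 8.265 CPM at PPE week 2 and 5.658 ± 3.956 CPM in saline. No hemoglobin gene of the list had a count in any library. Those genes have near-identical copies, so that a count of 0 is no measure of blood in the tissue.

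Of 73 other genes of iron and heme biology in 8 lists, 56 could be tested. At PPE week 1 against saline 4 rose and 0 fell with edgeR, where 3.98% of all features rose, with a median of 0.08 over the 56 and 0.00 over all features. At PPE week 2 against saline 1 rose and 0 fell (median 0.19, against 0.05 over all features), a share near the 1.3% of all features that rose. Between the PPE weeks 0 rose and 3 fell, where 2.82% of all features fell (median -0.02, against 0.02), and DESeq2 and limma-voom each gave 1 higher and 4 lower. With edgeR no gene passed in 6 of the 8 lists at PPE week 1, and in 7 of the 8 in each of the other comparisons. In those lists DESeq2 called 1 gene of iron regulation higher at PPE week 1, and DESeq2 and limma-voom each called 1 gene of iron uptake and reduction higher between the PPE weeks.

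The list of NRF2, BACH1 and their target genes held most of these calls, with 3 of 11 tested genes higher at PPE week 1 (median 0.20), 0 changed at PPE week 2 against saline (median 0.01) and 3 lower between the PPE weeks (median -0.45). BACH1 is a heme-sensing repressor of Hmox1, and NRF2 (Nfe2l2) activates Hmox1 and the ferritin genes under oxidative stress. Bach1 averaged 160.4 ± 22.89 CPM at PPE week 1, 99.0 ± 36.6 CPM at PPE week 2 and 82.97 ± 10.66 CPM in saline, and rose at PPE week 1 (0.95 ± 0.22, adjusted p = 0.0143). Its difference between the PPE weeks was -0.70 (adjusted p = 0.0638).

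Slc7a11, the cystine importer that feeds glutathione synthesis, averaged 56.64 ± 34.39 CPM at PPE week 1, 13.13 ± 8.972 CPM at PPE week 2 and 11.74 ± 5.172 CPM in saline. It rose at PPE week 1 (2.26 ± 0.57, adjusted p = 0.0292) and fell between the PPE weeks (-2.11 ± 0.56, adjusted p = 0.0422). Gsr, which regenerates reduced glutathione, averaged 79.74 ± 15.69 CPM at PPE week 1, 44.13 ± 9.966 CPM at PPE week 2 and 44.76 ± 7.372 CPM in saline. It too rose at PPE week 1 (0.83 ± 0.20, adjusted p = 0.0193) and fell between the PPE weeks (-0.85 ± 0.20, adjusted p = 0.0192). Nfe2l2 averaged 136.0 ± 19.77 CPM at PPE week 1, 86.89 ± 21.99 CPM at PPE week 2 and 118.0 ± 12.87 CPM in saline, and fell between the PPE weeks (-0.65 ± 0.17, adjusted p = 0.034). At PPE week 1 it differed from saline by 0.20 (adjusted p = 0.57). Other targets of NRF2 in the list did not pass: Nqo1 differed by -0.39 (adjusted p = 0.738) and Gclm by -0.41 (adjusted p = 0.362) at PPE week 1.

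Lrp1, the receptor that takes up heme bound to hemopexin among many other ligands, averaged 2949 ± 145.8 CPM at PPE week 1, 3138 ± 229.8 CPM at PPE week 2 and 2329 ± 219.9 CPM in saline. It rose at PPE week 1 (0.34 ± 0.09, adjusted p = 0.0356) and PPE week 2 (0.43 ± 0.09, adjusted p = 0.0231). Cd163, the macrophage receptor for hemoglobin bound to haptoglobin, averaged 0.1377 CPM at PPE week 1, 0.09327 CPM at PPE week 2 and 0 CPM in saline and was not tested. Whether reads shared between accessions were left out of its count was not checked, so these values are no sign that the gene was silent. Haptoglobin itself (Hp) averaged 669.6 ± 133.5 CPM at PPE week 1, 360.7 ± 173.7 CPM at PPE week 2 and 392.7 ± 264.4 CPM in saline, and differed by 0.77 ± 0.50 at PPE week 1 (adjusted p = 0.445).

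The calls on these listed genes were lost without some libraries. At PPE week 1, Bach1 missed the threshold without replicate 4 of saline and without replicate 2 of PPE week 1 (adjusted p = 0.0532 each). Gsr missed it at PPE week 1 without saline replicate 4 (0.0687), or without replicate 2 (0.0888) or 4 (0.0596) of the PPE animals, and between the PPE weeks without the earlier week's replicate 2 (0.0889) or 4 (0.0587) or the later week's replicate 3 (0.0524). Slc7a11 missed it at PPE week 1 without any 1 of the 4 saline libraries or PPE week 1 replicate 2 or 4 (0.0527 to 0.0891). Between the PPE weeks Slc7a11 missed it without any library other than saline replicate 3, PPE week 1 replicate 1 and PPE week 2 replicate 2 (0.0558 to 0.118). Nfe2l2 missed it without any 1 of the 4 PPE week 1 libraries or PPE week 2 replicate 1 or 3 (0.051 to 0.13). Lrp1 missed it at PPE week 1 without saline replicate 1, 2 or 4 or any 1 of the 4 PPE week 1 libraries (0.054 to 0.126), and at PPE week 2 without replicate 1, 2 or 4 of saline or replicate 4 of PPE week 2 (0.0507 to 0.0866). With the NR_046233 share as a covariate none of these calls passed (adjusted p 0.11 for Gsr at PPE week 1 to 0.638 for Lrp1 at PPE week 2), and without a low-count filter neither call of Slc7a11 did (0.0879 and 0.114).

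In each iron list with no edgeR call, the most abundant gene stands for it. In the regulation list that is Aco1, an iron regulatory protein that binds these elements, which averaged 83.08 ± 10.78 CPM at PPE week 1, 118.1 ± 44.42 CPM at PPE week 2 and 108.4 ± 13.3 CPM in saline. Its difference at PPE week 1 was -0.38 ± 0.23 (adjusted p = 0.359). Steap4, a metalloreductase, differed by -0.08 ± 0.19 at PPE week 1 (adjusted p = 0.888), and Pcbp1, a chaperone that delivers iron to ferritin, by 0.43 ± 0.18 (adjusted p = 0.151). Por, the reductase partner of heme oxygenase, differed by 0.50 ± 0.22 (adjusted p = 0.198). Fech, the last enzyme of heme synthesis, differed by -0.06 ± 0.24 (adjusted p = 0.933), and Slc25a37, the mitochondrial iron importer mitoferrin, by 0.10 ± 0.25 (adjusted p = 0.886).

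**Figure D4:**
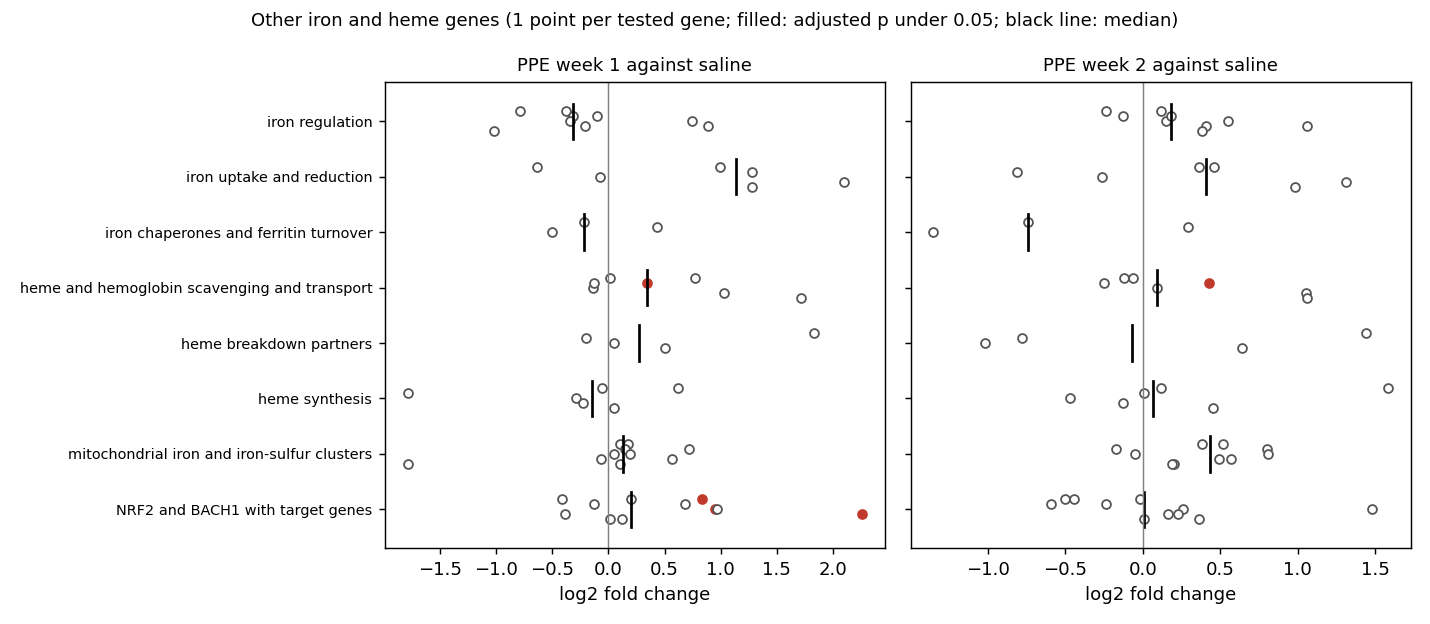
Log2 fold change (horizontal axis) of the other iron and heme genes at PPE week 1 and PPE week 2 against saline, 1 point per tested gene, by list. Filled points passed an adjusted p under 0.05, and a black line marks the list's median: 4 points are filled at PPE week 1, 3 of them in the NRF2 and BACH1 list, and 1 at PPE week 2.

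The sequence before an annotated start is shown for Ftl1 and Slc11a1, which moved in the same direction in both comparisons. The windows are the 250 bases before a RefSeq start on the gene's strand (GRCm38.p6), which need not be the gene's outermost start. Of the 9 genes, 5 had such a window, and Hmox1 was not among them. Capitals mark matches, on either strand, to the antioxidant response element core TGANNNNGC, the AP-1 site TGANTCA, the E-box CACGTG or the PU.1 box core GAGGAA. The Slc11a1 window (chr1:74374953-74375202, plus strand) held 1 match to the first and 1 to the last, which do not overlap. This window reaches past chr1:74375014, where the gene's span given above begins, and both matches lie inside that span. The Ftl1 window (chr7:45459887-45460136, minus strand) lies outside the gene's span and held none.
Slc11a1: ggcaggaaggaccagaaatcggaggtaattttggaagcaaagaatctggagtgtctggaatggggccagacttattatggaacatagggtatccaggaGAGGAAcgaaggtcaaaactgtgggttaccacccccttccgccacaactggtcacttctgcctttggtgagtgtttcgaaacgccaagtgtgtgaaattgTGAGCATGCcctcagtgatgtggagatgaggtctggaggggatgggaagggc
Ftl1: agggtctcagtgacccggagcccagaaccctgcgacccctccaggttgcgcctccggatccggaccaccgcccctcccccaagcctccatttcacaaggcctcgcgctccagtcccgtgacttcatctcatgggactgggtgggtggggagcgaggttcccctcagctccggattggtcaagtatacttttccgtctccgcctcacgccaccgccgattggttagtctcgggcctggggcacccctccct
Of 32851 such windows, 35.2% held TGANNNNGC, 6.75% TGANTCA, 6.02% CACGTG and 23.3% GAGGAA. The matches describe letters, and binding was not measured.

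Genes with a pattern most like that of a member were taken by Pearson r of log2 CPM over the 12 libraries, which share their scaling, as a description. For Ftl1 these were Tnfaip8l2 (r = 0.957), Slfn4 (0.936) and Gpc1 (0.932). For Hmox1 they were B4galt1 (0.958), Olfml3 (0.956) and Surf4 (0.926). Slc11a1 was most like Ncf4 (0.966), a subunit of the phagocyte NADPH oxidase, Tnfaip2 (0.958) and the kinase gene Lyn (0.957). Tfrc was most like Scly (0.900), Adgb (0.893) and Scml4 (0.886), and Trf most like Cmtm8 (0.905), Trmt10b (0.840) and Insrr (0.839). Slc40a1 was most like N4bp2l2 (0.852), Rgmb (0.848) and Zbtb37 (0.846), Cp most like Ppp1r12c (0.907), Naprt (0.849) and Fchsd1 (0.847), and Zmynd8 (0.905) and Gm19557 (0.902) were among the genes most like Slc11a2.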

How the data were processed

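RNA was sequenced from 12 aortas, each from a separate animal per the labels. The authors deposited a table of raw counts by RefSeq accession. They also deposited, for each PPE week, a table of log2 fold changes with p-values and adjusted p-values. Tools named in the submitters' processing notes are bcl2fastq and DESeq2, and the build is mm10. The aligner is not given in the sources used here, nor are the counter and the annotation. Libraries were made with TruSeq v2, per the labels, which does not record strand. Between 66.0 and 75.6% of low counts per library were even, so halved counts were tried. Reads shared between accessions seem to be missing from the deposited counts, which lowers genes with several of them.

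RefSeq's table for GRCm38.p6 named 34424 of 34755 accessions. Counts were tested with edgeR 4.0.16 (R 4.3.3): filterByExpr, which left 12756 accessions of 12273 genes, TMM scaling, a robust quasi-likelihood fit to all 12 libraries with 1 mean per group, two-sided tests and Benjamini-Hochberg adjustment over all accessions, with a threshold of 0.05. All 12 libraries entered each fit. The biological coefficient of variation was 0.512. The fit was also run on simulated counts with known changes, whose spread was set smaller than that of these data. That run does not show how well the fit finds changes here. Levels are mean ± SD of TMM-scaled CPM (n = 4), and an SE is the log2 fold change over the square root of F. Ratios of counts were compared by exact permutation. A ratio of Fth1 to Ftl1 had been planned and could not be computed. Alternatives used DESeq2 1.42.0, limma-voom (limma 3.58.1) and other scalings, filters and samples. Same-numbered libraries did not deviate together. Their correlations were -0.0881 to 0.0353, so they were not paired.

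The 9 genes and all lists were chosen with earlier results of these data known. All members are named, and from each list up to 4 called genes with the smallest adjusted p or, with none called, the most abundant. Hp, Cd163, Mertk, Nqo1, Gclm, Col1a1 and Col1a2 were named outside this rule, after their values were seen. For each tested member, the genes with the highest Pearson r were named too, and 1 of them is not reported here.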

Additional observations from a re-analysis of the deposited data

Results flagged for a closer look

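Of 30 sets of 4 libraries checked for a library far from the rest, 3 held one, where chance gives about 1 in 20, or 1.5. Tfrc stood at 29.64 CPM in PPE week 1 replicate 2, and Trf at 340.5 CPM in PPE week 1 replicate 1, each far above the other libraries of that group. The log2 ratio of Slc11a2 with to without the iron-responsive element was 1.46 in PPE week 1 replicate 4, again above the others. The difference from the same saline animals was not the same in both PPE groups, by the direct test of PPE week 2 against PPE week 1, for Ftl1 (-0.59), Hmox1 (-1.99) and Slc11a1 (-1.20).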

How the results depend on the processing

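The number of the 8 tested genes that passed was 3 at PPE week 1 and 0 at PPE week 2, each against saline, and 3 between the PPE weeks, the order kept below. With the NR_046233 share as a covariate it was 1 at PPE week 1 and 1 between the PPE weeks, with scaling by library size alone 3 at PPE week 2 and 1 between the PPE weeks, and in a fit of only the groups compared 1 between the PPE weeks. Without 1 library it was 2 to 3, 0 to 0 and 1 to 3. Over all features 1007, 338 and 841 passed. DESeq2 gave 1587, 745 and 1463, only the groups compared 2026, 74 and 521, the covariate 82, 0 and 69, and leaving out 1 library 378 to 1396, 139 to 381 and 319 to 1213. Library size alone gave 1638 at PPE week 2, where Ftl1 (0.91, adjusted p = 0.00156) and Cp (0.78, adjusted p = 0.0466) also passed. With it 1034 were higher and 195 lower at PPE week 1, 1611 and 27 at PPE week 2, and 682 and 75 between the PPE weeks, against 508 and 499, 166 and 172, and 481 and 360. With limma-voom 458 were higher and 694 lower between the PPE weeks. A replicate block left 3, 0 and 3 of the 8 genes and 865, 204 and 718 features. Under the block, Lrp1 missed the threshold at PPE week 1 (adjusted p = 0.0601) and PPE week 2 (0.0518).

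Under the alternatives tried, signs turned only in differences that had not passed. For Cp at PPE week 1 the value was -0.02 with DESeq2 and with relative log expression factors, -0.0006 with limma-voom, -0.01 with only the groups compared, the replicate block or halved counts, and -0.19 with accessions summed. Hmox1 at PPE week 2 was 0.10 and Slc11a2 between the PPE weeks 0.34 with the covariate. Between the PPE weeks, Slc40a1 was 0.05 and Tfrc 0.13 with library size alone. Without 1 library, Cp at PPE week 1 was -0.11 to 0.12, Trf -0.05 to 0.38 at PPE week 1 and -0.12 to 0.26 between the PPE weeks, Slc40a1 -0.14 to 0.33 at PPE week 2 and -0.38 to 0.07 between the PPE weeks, Slc11a2 -0.07 to 0.48 at PPE week 2, and Tfrc -0.16 to 0.07 between the PPE weeks. The log2 ratio of Slc11a1 to Slc11a2 between the PPE weeks was -1.34 with accessions summed (exact permutation p = 0.0286, not adjusted and the smallest this design allows). Without 1 library that ratio was 0.37 to 1.09 at PPE week 1, -0.58 to 0.19 at PPE week 2 and -1.21 to -0.48 between the PPE weeks. The log2 ratio of Slc11a2 accessions was then 0.54 to 1.06, -0.48 to 0.05 and -1.22 to -0.82. With library size alone Nfe2l2, Slc7a11 and Gsr did not pass between the PPE weeks (adjusted p = 0.299, 0.0785 and 0.0944), and with only the groups compared neither Nfe2l2 (0.0767) nor Slc7a11 (0.0707) did there, nor Lrp1 at PPE week 2 (0.132). The covariate and the groups move together, and the cause of these changes was not tested.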
